A study of Mus musculus with 8 samples.

Results

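Malat1, Neat1, Meg3, Rian, Mirg, Miat, Snhg11 and Snhg14 are 8 long noncoding RNA genes that are well known from brain. They were chosen by name and looked up in a table of read counts for 54446 genes, where each of them was found. All 8 also passed the low-count filter that kept 17636 genes for testing. Their counts ran from 195 to 375 per library for Mirg and from 43696 to 67364 for Meg3.

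The libraries came from mouse medial prefrontal cortex, a frontal region involved in working memory and social behaviour, and held RNA selected by its poly(A) tail. The labels name 2 groups, Ino80e overexpression with 4 libraries and wild type (written "wile-type") with 4. In the first group an adeno-associated virus was placed by stereotaxic injection to change the expression of Ino80e, a schizophrenia risk candidate whose protein belongs to the chromatin remodeller INO80. The sources used here do not give the mice's strain, age or sex, the virus's promoter or serotype, any control virus in wild type, or whether each library is 1 mouse.

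Long noncoding RNAs act as transcripts, and many of them stay in the nucleus. Malat1 and Neat1 are neighbouring genes whose RNAs sit in nuclear speckles and paraspeckles, 2 kinds of nuclear body in which splicing factors and RNA-binding proteins gather. Meg3, Rian and Mirg form a chain of maternally expressed genes in the imprinted Dlk1-Dio3 region and carry small nucleolar RNAs (snoRNAs) and microRNAs (miRNAs) in their transcripts. Miat, also called Gomafu, is a neuronal nuclear RNA that has been studied in relation to splicing and schizophrenia. Snhg11 and Snhg14 host snoRNAs, and Snhg14 is the long paternally expressed transcript that runs from the Snrpn region across Ube3a on the other strand.

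Positions are those of the GENCODE M21 annotation of the GRCm38 build. Malat1 (ENSMUSG00000092341) is a single exon block of 6983 bases at chr19:5795690-5802672 on the minus strand. Neat1 (ENSMUSG00000092274) is a single block of 20771 bases at chr19:5824708-5845478, also on the minus strand. Meg3 (ENSMUSG00000021268, chr12:109541001-109571726), Rian (ENSMUSG00000097451, chr12:109603940-109661716) and Mirg (ENSMUSG00000097391, chr12:109729764-109749460) follow each other on the plus strand with 8, 19 and 14 exon blocks. Miat (ENSMUSG00000097767) has 6 exon blocks at chr5:112213228-112229395 on the minus strand. Snhg11 (ENSMUSG00000044349) has 4 exon blocks at chr2:158375638-158386145 on the plus strand, and the annotation files it as protein coding in spite of its use as a noncoding host gene. Snhg14 (ENSMUSG00000100826) spans 667836 bases at chr7:59307924-59975759 on the minus strand in 65 exon blocks.

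Malat1 ends in an unusual way, which matters for libraries selected on poly(A). Its mature 3′ end is not a tail added by poly(A) polymerase: the enzyme RNase P cuts the transcript beside a tRNA-like element, and a run of A encoded in the genome is left at the end, held in a triple helix with upstream U-rich stretches. A run of 12 A, in capitals, begins at base 6674 of the annotated transcript (chr19:5795948-5796039, GRCm38, minus strand, shown 5′ to 3′ from the GENCODE M21 transcript sequence), with U-rich stretches before it and the start of the tRNA-like element after it.
Malat1 3′ region: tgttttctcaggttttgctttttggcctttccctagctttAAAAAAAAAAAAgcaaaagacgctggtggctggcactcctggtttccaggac
The longest run of A in any annotated transcript was 16 bases for Meg3, 15 for Rian, 17 for Snhg14, 9 for Snhg11, 7 for Neat1, 5 for Mirg and 4 for Miat. Which of these transcripts were caught by a tail and which by an internal run was not tested.

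The promoters of Malat1 and Meg3 are shown because they hold copies of a known motif, which the windows of the other members with an entry do not. RefSeq's promoter table (GRCm38.p6, a window around each gene's start) held entries for 7 of the 8 genes, all except Neat1, and 2 windows for Meg3, of which the upstream one is shown. Capitals mark TGACG or its reverse complement CGTCA, the core of the site bound by CREB, the cAMP-responsive factor that follows neuronal activity, and TGACGTCA, the full palindrome, which holds both. The Malat1 promoter is chr19:5802623-5802922 (minus strand) and the Meg3 promoter chr12:109540746-109541045 (plus strand), both shown 5′ to 3′.
Malat1 promoter: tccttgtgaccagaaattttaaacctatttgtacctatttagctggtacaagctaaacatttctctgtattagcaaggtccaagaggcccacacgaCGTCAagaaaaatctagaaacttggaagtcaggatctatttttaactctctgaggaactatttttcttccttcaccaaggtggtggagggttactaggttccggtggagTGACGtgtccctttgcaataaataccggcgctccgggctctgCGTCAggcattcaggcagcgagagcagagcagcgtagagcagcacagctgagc
Meg3 promoter: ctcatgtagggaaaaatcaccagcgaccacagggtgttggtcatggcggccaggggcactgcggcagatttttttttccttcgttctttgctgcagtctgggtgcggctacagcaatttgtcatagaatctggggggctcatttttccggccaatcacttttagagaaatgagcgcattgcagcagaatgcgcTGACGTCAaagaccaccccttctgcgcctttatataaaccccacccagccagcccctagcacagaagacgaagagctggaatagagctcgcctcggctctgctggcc
In Malat1 the motif began at -154, -45 and -3 from the start, and in Meg3 the palindrome began at -57 and a TATAA at -25. Among 32851 promoters of the same length, 1.79% held TGACGTCA, 20.81% held TGACG on either strand and 17.54% held TATAA on the shown strand. Neither TGACG nor CGTCA occurred in the other Meg3 window or in those of Rian, Mirg, Miat, Snhg11 or Snhg14, which says only that these letters are absent there.

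The chromosome 12 transcripts also carry miRNAs, and some are printed to show what lies inside each host. RefSeq (GRCm38.p6) listed 3 mature miRNAs inside Meg3, 6 inside Rian and 26 inside Mirg. The 26 of Mirg had 25 different seeds (bases 2 to 8, in capitals), since miR-453 and miR-496a-5p share one. miR-134-5p is known for limiting the size of dendritic spines.
miR-770-3p, in Meg3: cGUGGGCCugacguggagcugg
miR-341-3p, in Rian: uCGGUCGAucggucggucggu
miR-370-3p, in Rian: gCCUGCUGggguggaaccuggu
miR-134-5p, in Mirg: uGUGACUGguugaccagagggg
miR-453, in Mirg: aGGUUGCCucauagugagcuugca
miR-496a-5p, in Mirg: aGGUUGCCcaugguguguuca
miR-154-5p, in Mirg: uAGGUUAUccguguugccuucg
miR-541-5p, in Mirg: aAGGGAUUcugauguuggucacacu
These libraries did not measure mature miRNAs, which are too short for the library fragments, so the host transcripts are what follows.

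Library totals ran from 44762378 to 60490153 counts. Ino80e was raised in only 2 of the 4 libraries labelled overexpression: it stood at 74.1, 23.4, 23.3 and 45.04 CPM (read counts relative to the scaled library size) in replicates 1 to 4 of that group and at 22.3, 19.5, 25.5 and 20.7 CPM in wild type. Replicates 2 and 3 labelled overexpression thus lay within the wild-type range. The log2 fold change of Ino80e was 0.91 (SE 0.42), with an adjusted p of 0.51 in edgeR's quasi-likelihood test with Benjamini-Hochberg adjustment and an exact two-sided permutation p of 0.114, where 0.0286 is the smallest that 4 against 4 libraries allow. Of the 17636 genes tested, 6 passed an adjusted p under 0.05, which is 0.034% of them. A list of 7 choroid plexus markers stands for a tissue that lies inside the ventricles. In wild-type replicate 4 these markers summed to 1128 CPM, against 8.14 to 109 CPM in the other 7 libraries. In all 8 libraries 14 neuron markers summed to 15443 to 17681 CPM.

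None of the 8 long noncoding RNAs passed the test for a difference between the groups. Their log2 fold changes ran from -0.03 for Rian to 0.23 for Neat1, the ranges of the groups overlapped for all 8, and 0 of 8 passed the adjusted threshold that 0.034% of all tested genes passed. At an unadjusted p under 0.05, which 10.7% of all tested genes reached, the count of members was also 0 of 8, and DESeq2 and limma-voom likewise called 0 of 8. The 4 libraries of each group were apart for 5.84% of all tested genes and for 0 of these 8. The median log2 fold change of the 8 was 0.04, with 6 above 0, beside a median of 0.0016 over all tested genes. In bulk tissue, fewer cells of a type and less RNA per cell cannot be told apart.

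**Figure D1:**
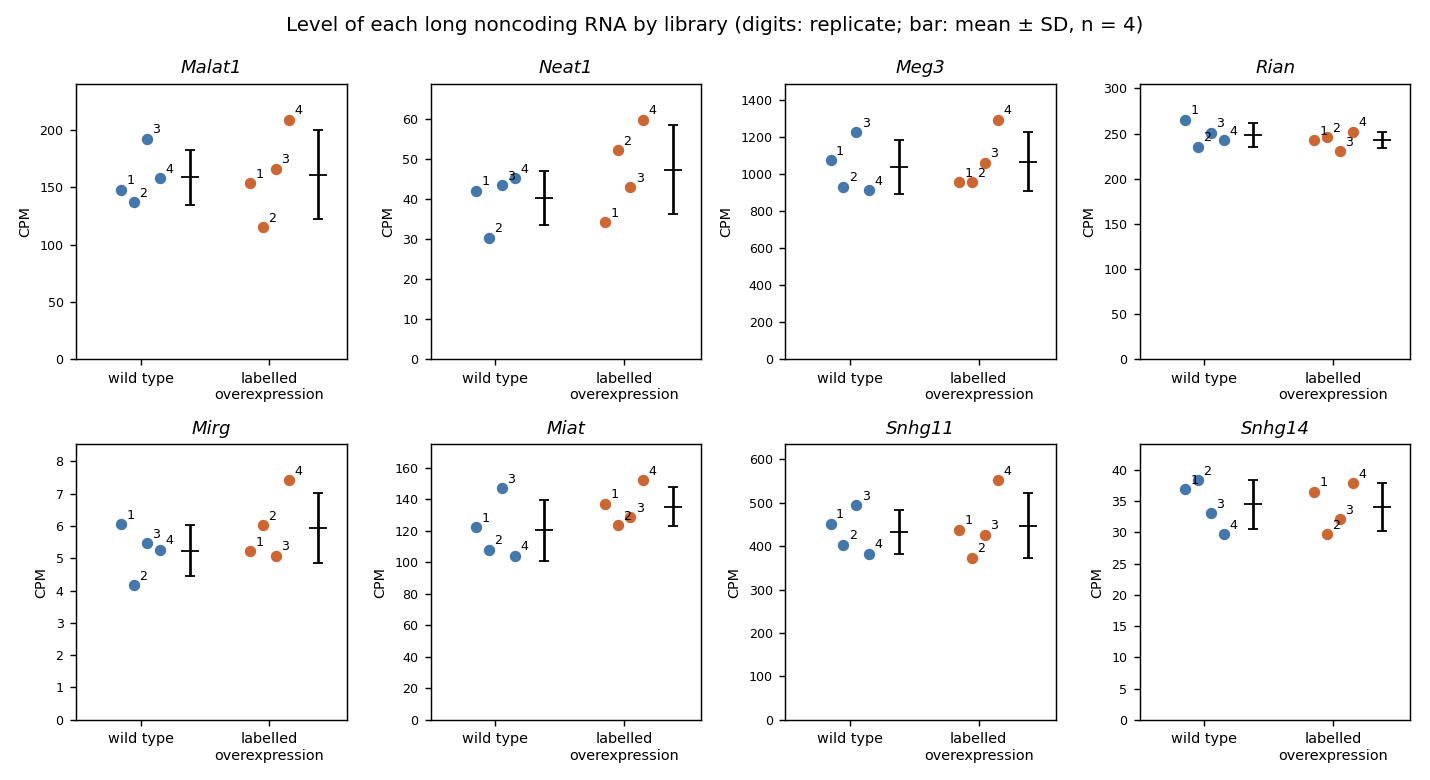
Level of each of the 8 genes in CPM (vertical axes, each from 0) in the 4 wild-type libraries and the 4 labelled overexpression. Points are libraries with their replicate number, and bars are the mean ± SD. The groups overlap in every panel, and replicate 4 labelled overexpression is the highest library of its group for all 8 genes.

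The RNAs of the nuclear bodies come first. Malat1, the speckle RNA, stood at 154, 115, 167 and 209 CPM in replicates 1 to 4 labelled overexpression and at 148, 137, 193 and 158 CPM in wild type. Both the lowest and the highest value were in the group labelled overexpression, so the wild-type range lay inside the other. The means were 161 ± 38.9 and 159 ± 24.0 CPM (SD, n = 4 each), and the log2 fold change was 0.02 (SE 0.20, 95% interval -0.47 to 0.51, edgeR adjusted p 0.98). That interval reaches from 0.720 to 1.43 times the wild-type level, so a moderate change of Malat1 in either direction was not detectable in this fit.

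Neat1 is the gene of the RNA scaffold on which paraspeckles form. Its counts do not tell its 4 annotated transcripts apart, so they are not levels of the scaffold alone. Neat1 was at 34.2, 52.2, 42.9 and 59.8 CPM in the group labelled overexpression and at 42.0, 30.3, 43.4 and 45.1 CPM in wild type. Replicates 2 and 4 labelled overexpression were above every wild-type library, while replicate 1 was below 3 of the 4. The means were 47.2 ± 11.1 and 40.2 ± 6.75 CPM (SD, n = 4 each), with a log2 fold change of 0.23 (SE 0.21, 95% interval -0.28 to 0.74, edgeR adjusted p 0.73). This was the highest fold change among the 8 genes with all libraries in the fit, and it was close to its own standard error. It was 0.10 without replicate 4 labelled overexpression, 0.11 without wild-type replicate 2 and 0.36 without replicate 1 labelled overexpression.

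Neat1 and Malat1 lie close together on chromosome 19, but their ratio varied from library to library. The Neat1 count was 22.3, 45.3, 25.7 and 28.5% of the Malat1 count in replicates 1 to 4 labelled overexpression, and in wild type it was 28.4, 22.0, 22.5 and 28.6%. A ratio within a library needs no scaling between libraries. Replicate 2 labelled overexpression stood apart, with the lowest Malat1 of all 8 libraries and the second highest Neat1. The group difference of the log2 ratio was 0.22 (exact two-sided permutation p 0.514, adjusted over 4 ratios 0.8), and without that library it was 0.01.

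The proteins that share these nuclear bodies were measured as a background. For scale, here and for the later gene lists, 10.7% of all tested genes had an unadjusted p under 0.05. Of 19 paraspeckle proteins, 0 passed the adjusted threshold, 1 was higher and 1 lower at an unadjusted p under 0.05, and the median log2 fold change was -0.06. The lowest p belonged to the splicing factor Srsf10, at 32.9 ± 2.32 against 39.6 ± 1.31 CPM (SD, n = 4 each); this log2 fold change of -0.27 (SE 0.07) had an edgeR adjusted p of 0.24. Of 22 nuclear speckle proteins, 0 passed the adjusted threshold and 2 were lower at an unadjusted p under 0.05, with a median of -0.02. Those were Rbm25, a splicing regulator, at a log2 fold change of -0.13 (SE 0.05, edgeR adjusted p 0.40), and Sf3b1, a core splicing factor, at -0.12 (SE 0.05, edgeR adjusted p 0.43), and with an offset for the GC content of transcripts they were at -0.04 and -0.02.

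The 14 tested neighbours of Malat1 and Neat1 on chromosome 19 gave a median log2 fold change of 0.11, with 12 above 0. None passed the adjusted threshold, and 3 were higher and 0 lower at an unadjusted p under 0.05. Ltbp3, which binds latent TGF-beta, led with 40.5 ± 2.50 against 32.7 ± 1.59 CPM (SD, n = 4 each), and its log2 fold change was 0.31 (SE 0.07, edgeR adjusted p 0.17). Rela, a subunit of NF-kappa-B, followed at 0.25 (SE 0.08, edgeR adjusted p 0.31). With the offset for GC content, Ltbp3 was at 0.19 and Rela at 0.14, and the median of the 14 was 0.0041.

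Meg3, the first gene of the chromosome 12 chain, is known as a growth-suppressing RNA and was the member with the highest level. It stood at 957, 957, 1062 and 1296 CPM in replicates 1 to 4 labelled overexpression and at 1075, 933, 1229 and 914 CPM in wild type. Replicate 4 labelled overexpression and wild-type replicate 3 were highest, and the other 6 libraries lay between 914 and 1075 CPM. The means were 1068 ± 160 and 1038 ± 146 CPM (SD, n = 4 each), and the log2 fold change was 0.04 (SE 0.14, 95% interval -0.29 to 0.38, edgeR adjusted p 0.94).

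Rian, the snoRNA host in the middle of the chain, hardly varied at all. It was at 242, 246, 230.4 and 252 CPM in the group labelled overexpression and at 266, 235, 251 and 243 CPM in wild type. The means of 243 ± 9.04 and 249 ± 13.0 CPM (SD, n = 4 each) differed by a log2 fold change of -0.03 (SE 0.05, edgeR adjusted p 0.83). With a 95% interval of -0.14 to 0.07, or 0.909 to 1.05 times the wild-type level, this was the tightest estimate of the 8. With an offset for the GC content of transcripts the value was 0.07, on the other side of 0.

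Mirg, the miRNA host at the end of the chain, was the faintest of the 8. Its levels were 5.21, 6.03, 5.08 and 7.42 CPM in replicates 1 to 4 labelled overexpression and 6.06, 4.16, 5.47 and 5.27 CPM in wild type. Wild-type replicate 2 was lowest, with 195 counts, and replicate 4 labelled overexpression highest, with 375 counts. The means of 5.93 ± 1.07 and 5.24 ± 0.792 CPM (SD, n = 4 each) gave a log2 fold change of 0.18 (SE 0.16, 95% interval -0.15 to 0.50, edgeR adjusted p 0.70).

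Meg3, Rian and Mirg are often described as 1 transcription unit, so their ratios were compared within each library. Rian was 25.3, 25.7, 21.7 and 19.4% of the Meg3 count in the group labelled overexpression and 24.7, 25.2, 20.4 and 26.5% in wild type. This share was lowest in replicate 4 labelled overexpression and wild-type replicate 3, the 2 libraries with the highest Meg3. Since Rian itself hardly varied, that follows from Meg3 being the divisor. The group difference of the log2 ratio was -0.07 (exact two-sided permutation p 0.6, adjusted 0.8).

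Mirg was 0.545, 0.630, 0.478 and 0.572% of the Meg3 count in the group labelled overexpression and 0.564, 0.446, 0.445 and 0.576% in wild type, and the groups overlapped. The log2 ratio differed by 0.13 (exact two-sided permutation p 0.286, adjusted 0.8).

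Between Dlk1 and Dio3, the protein-coding genes that bound the imprinted region, the table held 118 genes, of which 73 had no count in any library and 11 were tested. None of the 11 passed the adjusted threshold, and their median log2 fold change was 0.11. The paternally expressed genes were faint: Dlk1, a growth regulator, stood at 1.96 ± 1.09 CPM labelled overexpression and 1.81 ± 0.917 CPM in wild type, and Rtl1, which lies opposite the maternal transcripts, at 2.26 ± 0.274 and 1.99 ± 0.737 CPM (SD, n = 4 each). Over a wider list of 15 tested neighbours, 2 were higher and 0 lower at an unadjusted p under 0.05, and 0 passed the adjusted threshold. These were Begain, a synaptic scaffold-associated protein, at a log2 fold change of 0.15 (SE 0.06, edgeR adjusted p 0.39), and Evl, an actin regulator, at 0.12 (SE 0.05, edgeR adjusted p 0.40), and both were at 0.02 with the offset for GC content.

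Miat was at 137, 124, 129 and 152 CPM in replicates 1 to 4 labelled overexpression and at 123, 108, 147 and 104 CPM in wild type. All 4 libraries labelled overexpression were above 3 of the wild-type libraries, and wild-type replicate 3 was above 3 of them. The means of 135 ± 12.5 and 120 ± 19.3 CPM (SD, n = 4 each) gave a log2 fold change of 0.17 (SE 0.11, 95% interval -0.08 to 0.42, edgeR adjusted p 0.60). Without wild-type replicate 3 the value was 0.28, still short of the threshold at an edgeR adjusted p of 0.13. With the offset for GC content it was 0.09 (SE 0.10), and Miat, at 55.4% GC, is the most GC-rich of the 8.

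Around Miat on chromosome 5, 10 neighbours were tested, with a median log2 fold change of 0.09 and 0 past the adjusted threshold. At an unadjusted p under 0.05, 2 were higher and 0 lower. Tpst2, a protein-tyrosine sulfotransferase, stood at a log2 fold change of 0.24 (SE 0.08, edgeR adjusted p 0.31) and Asphd2 at 0.14 (SE 0.06, edgeR adjusted p 0.40). The offset for GC content brought these to 0.12 and 0.04 and the median of the 10 to 0.0025.

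Snhg11, a neuron-enriched snoRNA host, stood at 438, 374, 426 and 552 CPM in the group labelled overexpression and at 451, 403, 495 and 383 CPM in wild type. As for Meg3, replicate 4 labelled overexpression and wild-type replicate 3 were the highest. The means of 447 ± 74.9 and 433 ± 50.1 CPM (SD, n = 4 each) gave a log2 fold change of 0.05 (SE 0.14, 95% interval -0.28 to 0.37, edgeR adjusted p 0.93). Of its 8 tested neighbours on chromosome 2, 0 had an unadjusted p under 0.05, and the median was -0.06.

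Snhg14 was at 36.5, 29.7, 32.2 and 37.9 CPM in replicates 1 to 4 labelled overexpression and at 36.9, 38.4, 33.1 and 29.7 CPM in wild type. Each group held high and low libraries over nearly the same range. The means of 34.1 ± 3.82 and 34.5 ± 3.91 CPM (SD, n = 4 each) gave a log2 fold change of -0.02 (SE 0.09, 95% interval -0.20 to 0.16, edgeR adjusted p 0.96). With the offset for GC content it was 0.11 (SE 0.07), and its transcript, at 38.1% GC, is the most AT-rich of the 8.

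Snrpn, which lies at the head of the same paternal unit and encodes a splicing protein, gave a reference within each library. Snhg14 was 11.3, 9.60, 10.2 and 12.5% of the Snrpn count in the group labelled overexpression and 11.1, 11.6, 10.3 and 9.68% in wild type. The log2 ratio differed by 0.03 between the groups (exact two-sided permutation p 0.8, adjusted 0.8). Ube3a, the ubiquitin ligase gene that Snhg14 crosses on the other strand, stood at 76.6 ± 5.64 CPM labelled overexpression and 85.9 ± 11.7 CPM in wild type (SD, n = 4 each), with a log2 fold change of -0.17 (SE 0.08, edgeR adjusted p 0.49).

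The exons of Snhg14 and Ube3a share 1803 bases on opposite strands, 6.91% of the Snhg14 exons, and Ube3a held 33024 counts in all. The libraries marked strand, but no source used here gives the strand setting of the counting, so reads of the shared stretch cannot be assigned with certainty. For the other members the opposite-strand partners that share exon bases held few counts or none: Gm37376 across 453 bases of Malat1 and Gm26906 across 1228 bases of Meg3 had 0 counts, and Gm26953 across 2260 bases of Miat had 87 counts in all 8 libraries. Reads of shared bases may have been left uncounted, so these counts do not show that the partners are silent.

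Of the 15 tested neighbours of Snhg14, 0 passed the adjusted threshold, and the median log2 fold change was -0.15. At an unadjusted p under 0.05, which 10.7% of all tested genes reached, 4 were lower and 0 higher. Nipa2, a magnesium transporter, stood at -0.24 (SE 0.08, edgeR adjusted p 0.34). With the offset for GC content it was at -0.14, and the median of the 15 was -0.09.

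**Figure D2:**
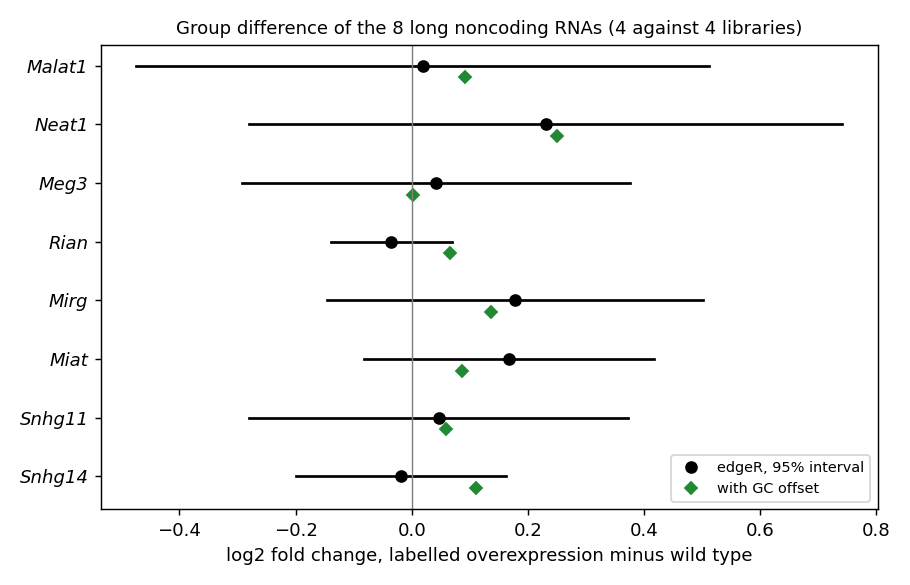
Log2 fold change of each gene, labelled overexpression minus wild type (horizontal axis), with its 95% interval from edgeR in black and the value with an offset for GC content as a green diamond. All 8 intervals cross 0, the narrowest is that of Rian (-0.14 to 0.07), and the diamonds of Rian and Snhg14 lie on the other side of 0 from the black points.

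Since replicates 2 and 3 labelled overexpression showed no rise of Ino80e, the fold changes were also taken without them. Ino80e then stood at a log2 fold change of 1.44, which did not pass either (edgeR adjusted p 0.35). The libraries were left out by their Ino80e level, so this value is no test of Ino80e. Of the 8 long noncoding RNAs, 0 passed the threshold. The values were 0.19 for Malat1, 0.22 for Neat1, 0.12 for Meg3, -0.01 for Rian, 0.27 for Mirg, 0.26 for Miat, 0.19 for Snhg11 and 0.11 for Snhg14, the last of these on the other side of 0. Without wild-type replicate 4, the library with choroid plexus transcripts, the count was again 0 of 8.

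The small RNA genes nested in the hosts held few counts. Some of them lie in host exons, where reads of shared bases may have been left uncounted. A count of 0 therefore does not show that a small RNA is silent. Of 18 in Rian, 9 had any count and the sum over 8 libraries was 508, a ratio of 0.507% to the counts of Rian itself, which are a separate row. Of 14 miRNA genes in Mirg, 7 had any count, with a sum of 190, a ratio of 8.34% to those of Mirg, and of 208 snoRNA genes in Snhg14, 14 had any, with a sum of 182. Only Gm23600 in Rian and Gm25129 in Snhg11 had at least 10 counts in every library, and both are snoRNA genes in introns of their hosts. They are shown in full from the GENCODE M21 transcripts (GRCm38, plus strand), Gm23600 at chr12:109643748-109643818 and Gm25129 at chr2:158379534-158379666.
Gm23600, in Rian: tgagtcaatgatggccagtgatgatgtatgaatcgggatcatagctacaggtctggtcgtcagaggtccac
Gm25129, in Snhg11: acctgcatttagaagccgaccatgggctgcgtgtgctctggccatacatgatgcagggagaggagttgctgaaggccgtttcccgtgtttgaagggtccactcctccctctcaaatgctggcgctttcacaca
Gm23600 held 10 to 43 counts per library, at a log2 fold change of 0.62 (SE 0.46, edgeR adjusted p 0.63), and Gm25129 held 20 to 63. Counts from poly(A) libraries do not measure the processed snoRNA, which has no such tail.

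Levels of different genes can be compared only per length. In wild type, Meg3 was highest at 57.4 ± 8.07 CPM per kilobase of exon, followed by Snhg11 at 50.8 ± 5.87, Malat1 at 22.8 ± 3.44, Rian at 13.6 ± 0.714, Miat at 13.0 ± 2.08, Neat1 at 1.94 ± 0.325, Snhg14 at 1.32 ± 0.150 and Mirg at 0.719 ± 0.109 (SD, n = 4 each). This order of neighbours held in all 8 libraries, with 2 exceptions. Rian was above Miat in only 4 of 8, so these do not differ beyond their spread, and Neat1 was above Snhg14 in 7 of 8. Meg3 stood at the 96.3 percentile of all tested genes per kilobase of exon, Snhg11 at 95.7, Malat1 at 88.9, Rian at 81.5 and Miat at 80.7. Neat1, Snhg14 and Mirg were below the middle, at 41.4, 35.0 and 26.2, so these 3 were not abundant per length of annotated exon. That length joins the exons of all annotated transcripts of a gene. It is 26093 bases for Snhg14 and 18234 for Rian, whose longest single transcripts have 6861 and 8089. For Malat1 and Neat1 the joined and longest lengths are equal. Each has 4 annotated transcripts, and which of them the reads came from was not tested. A shorter transcript would give a higher level per length. The order and the percentiles therefore depend on the length used. Meg3 made up 47.8 to 51.3% of the summed CPM of the 8 in each library, and the 8 together took 0.182 to 0.261% of all counts.

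The members also differed in how far libraries of 1 group spread. The SD of log2 CPM within groups was 0.31 for Neat1, 0.29 for Malat1, 0.24 for Mirg, 0.20 for Meg3 and for Snhg11, 0.18 for Miat, 0.16 for Snhg14 and 0.07 for Rian. Against tested genes whose mean CPM was within 2-fold of their own, Malat1 stood at percentile 99.7 (2288 genes), Neat1 at 99.5 (4461), Snhg11 at 99.2 (792), Miat at 98.7 (2709) and Meg3 at 98.3 (239). Snhg14 was at 92.3, Mirg at 68.3 and Rian at 43.5. Thus 5 of the 8 were above the 95th percentile, a measure chosen after the values were seen, and after correction for GC content the number was again 5. Without wild-type replicate 3 it was 4, with Miat at 93.1.

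Other lists give a scale for that count. Of 20 other brain long noncoding RNAs, 3 were above the 95th percentile (Mir124a-1hg, Sox2ot and Six3os1), and of 14 other snoRNA host genes, 19 paraspeckle proteins and 22 nuclear speckle proteins, 0 were. Of 14 oligodendrocyte markers, genes of the myelin-forming cells, 9 were above it, and of 14 neuron markers 2 were. So were 7 of 7 choroid plexus, 4 of 14 microglia, 3 of 14 endothelial and mural, and 1 of 12 astrocyte markers. Among chromosome neighbours, 3 of 15 were above it for Snhg14 and 1 of 15 for Meg3, Rian and Mirg. For Malat1 and Neat1 it was 1 of 14, for Snhg11 1 of 8 and for Miat 0 of 10.

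**Figure D3:**
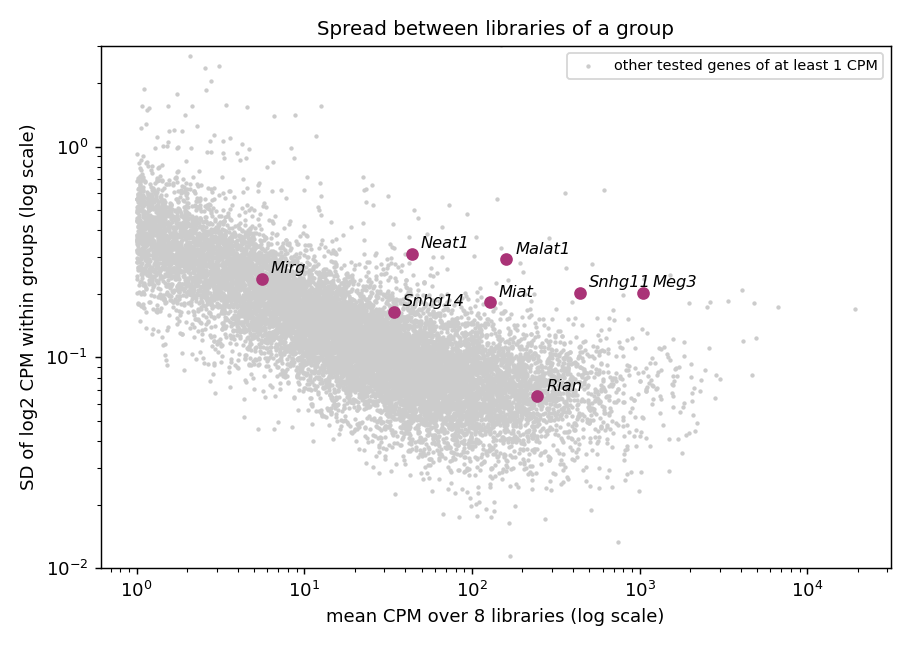
SD of log2 CPM within groups (vertical, log scale) against mean CPM over 8 libraries (horizontal, log scale), with the 8 genes in purple and the other tested genes of at least 1 CPM in grey. Malat1, Neat1, Meg3, Snhg11 and Miat lie at the upper edge of the cloud, and Rian lies within it at an SD of 0.07.

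The spread was shared by part of the set. As deviations in log2 CPM from a gene's mean over the 8 libraries, replicate 4 labelled overexpression was at 0.41 for Malat1, 0.31 for Meg3, 0.34 for Snhg11 and 0.26 for Miat, and wild-type replicate 3 was at 0.29, 0.23, 0.18 and 0.21 for the same genes. These 2 libraries come from different groups. Rian stayed between -0.09 and 0.11 in every library. Neat1 and Mirg shared the rise in replicate 4 labelled overexpression, at 0.48 and 0.43, but not that in wild-type replicate 3, where they were at 0.02 and -0.01. In replicate 2 labelled overexpression Neat1 was at 0.28 and Malat1 at -0.45.

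Over the 8 libraries, 27 of the 28 pairs among the members had a positive Pearson r, with a median of 0.443. No such count was made for pairs of other genes, so this is not shown to be particular to the members. One pair passed a permutation test with adjustment over the 28: Meg3 and Snhg11 had r 0.928 (exact permutation p 0.00114, adjusted 0.0319) and Spearman's rho 0.810 (exact permutation p 0.0218, adjusted 0.261). Their r was 0.902 within the group labelled overexpression and 0.990 within wild type. Without the 2 libraries farthest from the median of Meg3 it was 0.704. The 2 genes lie on chromosomes 12 and 2. Of the 28 rho values, 0 passed the adjustment.

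Whether neighbours on a chromosome stood out depended on the measure and the libraries. The neighbours Malat1 and Neat1 had r 0.320, and 0.654 without the 2 farthest libraries, below the r of 0.803 for Malat1 and Meg3 (adjusted permutation p 0.0782), which lie on chromosomes 19 and 12. Meg3 and Rian, both on chromosome 12, had r 0.443, and without the 2 farthest libraries 0.325. Meg3 and Mirg, on the same chromosome, had r 0.645 and rho 0.667, and r 0.393 without the 2 farthest libraries. Rian and Mirg had r 0.653, and rho 0.929, the highest of the 28 (adjusted permutation p of rho 0.0625), and their r was 0.866 without the 2 farthest libraries. Neat1 and Mirg had r 0.881 (adjusted permutation p 0.0646), which was 0.500 without the 2 farthest libraries.

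**Figure D4:**
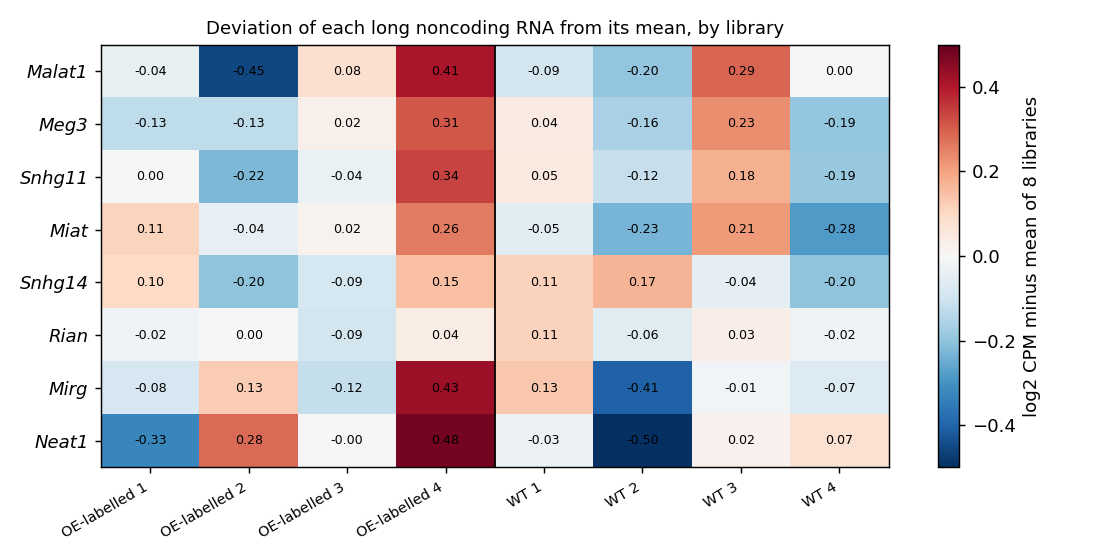
Deviation of each gene (rows) from its mean log2 CPM over the 8 libraries (columns, OE-labelled for labelled overexpression and WT for wild type), with red for higher and blue for lower. Malat1, Meg3, Snhg11 and Miat are red in replicate 4 labelled overexpression and in wild-type replicate 3, Rian is pale throughout, and Neat1 and Malat1 have opposite colours in replicate 2 labelled overexpression.

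Cell type markers moved between libraries as well. The mean log2 CPM of 14 oligodendrocyte markers, relative to the wild-type mean, was -0.32 in replicate 1 labelled overexpression and -0.12 in wild-type replicate 2, the libraries where Neat1 was lowest, and its summed level ran from 4554 to 6519 CPM in the group labelled overexpression and from 5442 to 6500 CPM in wild type. Neat1 followed these markers with r 0.739 (exact permutation p 0.0333) and rho 0.881 (exact permutation p 0.00724), and with r 0.417 without the 2 farthest libraries. Against 14 neuron markers Neat1 had r -0.81 (exact permutation p 0.0178) and rho -0.69 (exact permutation p 0.0694), and without the 2 farthest libraries r -0.59. Mirg was similar against the neuron markers, with r -0.76 (exact permutation p 0.0364) and rho -0.79 (exact permutation p 0.0279). Without the 2 farthest libraries its r was -0.61. Of 48 relations between a member and a list of markers, 0 passed an adjusted permutation p under 0.05, and the lowest adjusted value was 0.582.

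Microglia markers, genes of the resident immune cells of brain, had a median log2 fold change of 0.22 over 14 genes, with 6 higher and 0 lower at an unadjusted p under 0.05 and 0 past the adjusted threshold, and a median of 0.15 with the offset for GC content. Their summed level was 518 to 660 CPM in the group labelled overexpression and 489 to 557 CPM in wild type, with replicates 1 and 2 labelled overexpression highest. For the astrocyte, endothelial and oligodendrocyte lists the medians lay between -0.02 and -0.01. These lists are among the 48 relations above.

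The genes whose log2 CPM followed each member most closely over the 8 libraries were listed from 13176 genes of at least 1 CPM. For Malat1 they were Sfswap (r 0.985), Grin1os (0.967) and Abcc5 (0.964). For Neat1 they were Dnah10 (0.972), Ttyh2 (0.958) and Ttf2 (0.952), and for Meg3 Smarcd2 (0.963), Cfp (0.954) and Trub1 (0.950). Snhg11 was closest to Trank1 (0.979), Sfrp2 (0.956) and Otud3 (0.951), and Miat to Smpd4 (0.971), Kcnh4 (0.964) and Qtrt2 (0.958). For Rian the list was Prrg2 (0.937), Dusp12 (0.924) and Mettl21a (0.919), for Mirg Zmym3 (0.976), Trim11 (0.959) and Naa40 (0.939), and for Snhg14, among others, R3hdm1 (0.945) and Ctnna2 (0.941). These are the highest of many values of r over 8 libraries, and all of them share the same libraries and scaling.

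Other noncoding genes of the same kinds served as a last comparison. Of 14 tested snoRNA host genes other than these, 0 passed the adjusted threshold, with 1 higher and 1 lower at an unadjusted p under 0.05 and a median log2 fold change of 0.03. Snhg8 stood highest among them by p, at 1.79 ± 0.599 against 1.04 ± 0.153 CPM (SD, n = 4 each), with a log2 fold change of 0.78 (SE 0.29, edgeR adjusted p 0.36). Of 20 other brain long noncoding RNAs, 0 reached an unadjusted p under 0.05, and their median was -0.08, beside 0.04 for the 8 described here. With the offset for GC content those medians were -0.01 and 0.09.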

How the data were processed

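Poly(A)-selected RNA was made into strand-specific libraries by the dUTP method, per the labels' protocols. The authors deposited raw counts per Ensembl gene, 1 column per library; the submitters' processing notes list Trimmomatic 0.39, STAR 2.7.10, featureCounts 2.0.3 and the builds GRCm38 and mm10, without their roles. No source used here gives the annotation release, the strand setting or the treatment of multiply mapped reads. Groups and replicate numbers came from the sample titles, which do not say that libraries are separate mice, so p-values reflect only how far these libraries spread, which may be technical. No library copied another (chi-square per degree of freedom at least 9.53). A symbol was found for 54409 of 54446 identifiers.

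Counts were filtered (filterByExpr) and scaled by TMM, and all 17636 genes were fitted with edgeR 4.0.16 (R 4.3.3), a robust quasi-likelihood F test with Benjamini-Hochberg adjustment and a threshold of 0.05. CPM are relative to the TMM-scaled library size. Ratios, Ino80e and correlations were tested by exact permutation over all arrangements (numpy 2.4.6). Correlations use log2 CPM. The GC offset is a per-library spline with 5 degrees of freedom. The fit was tested on simulated data. Members and gene lists were chosen with earlier results of these data known. Named were the 8 genes, Ino80e, up to 4 list members with the lowest p, of which some are given, the 3 genes most like each member, and nested small RNAs with at least 10 counts in every library; genes bounding a region and opposite-strand partners are named for position. Alternatives were other scalings and filters, DESeq2 1.42.0, limma-voom 3.58.1, no robust estimation, the replicate block, the GC offset, 1 surrogate variable (sva 3.50.0), a threshold of 0.1 and leaving out libraries. Some genes that the naming rule picks are not reported here.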

Additional observations from a re-analysis of the deposited data

How the results depend on the processing

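None of the 8 long noncoding RNAs passed the threshold under any alternative run. Some runs put 1 of the 8 at an unadjusted edgeR p under 0.05. It was Miat without a low-count filter (p 0.0038, SE 0.058 beside 0.11 in the main fit) and without wild-type replicate 3 (p 0.00096). Without overexpression replicates 1 and 3 it was Neat1 (p 0.0085). Over all genes, the count past the threshold was 6, and it was 83 without a low-count filter, 2 without robust estimation, 19 with 1 surrogate variable, 40 with DESeq2 and 1 with limma-voom. It ran from 1 to 8 when each library was left out in turn, and was 11, 3, 1, 3 and 23 without overexpression replicates 1 and 2, 1 and 3, 2 and 3, 2 and 4, or 3 and 4. The cause was not tested. With the replicate block the count was 1 of all genes and 0 of the members. Same-numbered libraries had correlations of their deviations of -0.026, -0.071, 0.077 and 0.033, and differently numbered ones ran from -0.25 to 0.19. The labels do not say what a shared number stands for, and whether it marks a shared litter or day was not tested.

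Fold changes this close to 0 changed sign easily. The log2 value of Malat1 was -0.0014 with the replicate block, -0.0027 with limma-voom, between -0.13 and 0.15 with 1 library left out, and -0.17 and -0.24 without overexpression replicates 1 and 4, or 3 and 4. Rian was at 0.067 with the GC offset, 0.069 with the offset and the replicate block, and 0.00018 without overexpression replicates 1 and 3. Snhg14 was at 0.11 with the GC offset, with or without the block, and at 0.022 and 0.11 without replicates 1 and 2, or 2 and 3. For Meg3 the values without replicates 1 and 4, 2 and 4, or 3 and 4 were -0.039, -0.039 and -0.11, and for Snhg11 -0.11, -0.0031 and -0.092. Without replicates 2 and 4, Neat1 was at -0.062 and Mirg at -0.027. With 1 library left out, Snhg14 ran from -0.084 to 0.042, Neat1 from 0.098 to 0.36, Mirg from 0.053 to 0.25, Meg3 from -0.065 to 0.13 and Snhg11 from -0.070 to 0.12. Miat was above 0 in all 25 alternatives. Among the ratios, Rian to Meg3 ran from -0.15 to 0.0037 with 1 library left out and was 0.082 without overexpression replicates 3 and 4. Neat1 to Malat1 was -0.074 without replicates 2 and 4, and Snhg14 to Snrpn ran from -0.039 to 0.090 and was -0.10 and -0.029 without replicates 1 and 4, or 3 and 4. In the main fit the standard errors of Malat1 and Neat1, 0.20 and 0.21, exceeded that of Mirg, 0.16, which has far fewer counts. Without robust estimation they were 0.13 and 0.14, below the 0.16 of Mirg. With the replicate block they were 0.11 for Malat1, 0.21 for Neat1 and 0.16 for Mirg, so this order depended on the fit.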
